A study of Homo sapiens with 12 samples.

Results

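The genes described here are the ligands and receptors of the tumour necrosis factor (TNF) superfamily that carry a TNFSF or TNFRSF symbol, measured in 2 human pancreatic cancer cell lines with and without the phorbol ester PMA. They were chosen by symbol alone, from probe sets with exactly 1 gene symbol, and where a gene had several probe sets the one with the highest mean log2(signal + 3) over all arrays was kept. This gave 33 of 19775 genes: 10 ligand genes, 20 receptor genes and 3 noncoding genes named for a receptor. Of the 33, 31 lay above the 40th percentile of an array on at least 3 arrays and were tested among 16099 genes. The superfamily receptor genes TNFRSF13C and TNFRSF17 did not, with highest signals of 15.0 and 2.23.

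The study compared PMA, which activates protein kinase C and is described there as inducing invasion, with no stimulation in 1 line of a primary tumour and 1 line of ascites. The 4 groups were BxPC-3 cells (primary tumour) given 1 µM PMA for 4 h, BxPC-3 cells left untreated, AsPC-1 cells (ascites) given the same PMA treatment, and AsPC-1 cells left untreated, all after a night in low serum. PMA was dissolved in DMSO, and the vehicle of the untreated cells was not given in the sources used here. Each group had 3 Affymetrix arrays, from passages 7, 9 and 11 of BxPC-3 and 8, 10 and 12 of AsPC-1, so replicate numbers pair PMA and untreated arrays within a line, and each line stands for 1 culture history.

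TNF superfamily ligands are mostly made as trimeric transmembrane proteins, which proteases can release from the cell surface. Their receptors either carry a cytoplasmic death domain, which through the adaptors FADD or TRADD can engage caspases, or bind TRAF proteins, which lead to NF-kB and MAP kinase signalling. Decoy members of the family bind a ligand without passing on a full signal. In epithelial tumours the family is studied above all for TRAIL, a ligand that can start apoptosis through the death receptors DR4 and DR5.

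Values are MAS5 signal on a linear scale, with trimmed means between 100.014 and 100.018 on the 12 arrays. Signals of different probe sets were not tested against each other, and dim or bright refers to the array signal alone. Differences are on the log2(signal + 3) scale, which understates changes of dim genes, and a difference passed the test at an adjusted p under 0.05 (limma, Benjamini-Hochberg over all genes tested). The 40th percentile of an array was a signal of 8.18 to 10.2. Detection calls were not used, so signals near or under it have no test against background. Probe sets whose names end in s_at or x_at, such as those of TNFRSF12A, TNFRSF25 and CFLAR, may also bind related transcripts. One array stood apart across genes. Replicate 1 of the AsPC-1 PMA group had r = 0.921 with its own group and r = 0.964 with the untreated array from passage 8. Results are given with and without it. The array was picked from these same data, and the fit without it keeps its untreated partner, so that pair is broken. In that fit 19.5% of all genes passed after PMA in AsPC-1, against 1.96% with all arrays. Values without the array are therefore not independent support for any gene. The ACTB ratio of 3′ to 5′ signal was 1.84, 1.99 and 2.02 on the BxPC-3 PMA arrays and 2.56, 2.95 and 4.14 on the untreated ones, and 1.79 to 2.32 on all AsPC-1 arrays. Its part in the BxPC-3 results was not tested. The summed signal of 5 epithelial markers lay between 17610 and 18510 in BxPC-3 with PMA, 13570 and 16090 in untreated BxPC-3, 21600 and 29320 in AsPC-1 with PMA, and 24210 and 27470 in untreated AsPC-1. Of these 5, KRT18 alone passed the test after PMA, rising by 0.44 in BxPC-3 (limma, adjusted p = 0.0373). The sum was at most 102.9 on any array for the 4 leukocyte markers with a probe set, 78.4 for 4 endothelial and 127.5 for 4 fibroblast markers. With bulk RNA, a lower signal may be fewer cells of a kind or less RNA per cell, which cannot be told apart.

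The TRAIL receptor genes TNFRSF10D and TNFRSF10B rose after PMA in both lines, and no other member passed the test in both. TNFRSF10D, which encodes the decoy receptor DcR2 with a truncated death domain, had signals of 1215, 977 and 1237 in BxPC-3 cells with PMA, against 262, 227 and 160 in untreated BxPC-3 cells. All PMA arrays lay far above all untreated ones. It rose by 2.40 ± 0.36 (SE, n = 3 each) on the log2 scale, a 5.29-fold difference (limma, adjusted p = 0.00198). The call held in each of the 12 fits that left out 1 array, with differences of 2.21 to 2.56 and adjusted p up to 0.0164. In AsPC-1 cells TNFRSF10D signals were 651, 1893 and 1843 with PMA and 313, 457 and 578 untreated. The groups did not overlap, but the PMA array of passage 8 lay well below the others. The rise was 1.59 ± 0.36 (limma, adjusted p = 0.0417), and 2.09 without that array (adjusted p = 4.85e-05). Leaving out any other single array lost the AsPC-1 call, with adjusted p up to 0.195 and differences of at least 1.32.

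TNFRSF10B, which encodes the death receptor DR5, had signals of 3303, 3196 and 2928 in BxPC-3 cells with PMA, against 1724, 1472 and 1740 in untreated BxPC-3 cells. In AsPC-1 its signals were 1923, 4166 and 4311 with PMA and 1702, 1481 and 1392 untreated. In both lines every PMA array was above every untreated array, though the AsPC-1 PMA array of passage 8 was only slightly so. TNFRSF10B rose by 0.93 ± 0.24 in BxPC-3 (limma, adjusted p = 0.0369) and by 1.10 ± 0.24 in AsPC-1 (limma, adjusted p = 0.0363). Without AsPC-1 PMA replicate 1 the AsPC-1 rise was 1.48 (adjusted p = 4e-06). Both calls lay near the threshold. The BxPC-3 call was lost without any 1 of the 6 BxPC-3 arrays or without untreated AsPC-1 replicate 2 or 3 (0.86 to 0.98 over all 12 such fits, adjusted p up to 0.124). The AsPC-1 call was lost without any 1 array other than PMA or untreated replicate 1 of AsPC-1 (0.90 to 1.48, adjusted p up to 0.182).

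TNFRSF10A encodes DR4, the other death receptor for TRAIL. Its signals were 310, 303 and 334 in BxPC-3 cells with PMA and 263, 156 and 181 in untreated BxPC-3 cells, with no overlap. In AsPC-1 they were 143, 859 and 747 with PMA and 81.3, 272 and 341 untreated, and the low PMA and untreated arrays both came from passage 8. The differences of 0.68 ± 0.60 in BxPC-3 (limma, adjusted p = 0.577) and 1.19 ± 0.60 in AsPC-1 (adjusted p = 0.345) did not pass the test. The BxPC-3 difference passed in a fit to the BxPC-3 arrays alone (adjusted p = 0.019). With passage as a replicate block the AsPC-1 difference passed (adjusted p = 0.0116), and without AsPC-1 PMA replicate 1 it was 2.01 (adjusted p = 0.00462). Leaving out untreated AsPC-1 replicate 1 gave 0.57, which did not pass. TNFRSF10C, the gene of the decoy receptor DcR1, stayed between 0.996 and 22.7 on all 12 arrays and passed no test.

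TRAIL itself, encoded by TNFSF10, had signals of 215, 154 and 164 in BxPC-3 cells with PMA and 209, 359 and 404 in untreated BxPC-3 cells. In AsPC-1 they were 154, 31.5 and 55.6 with PMA and 410, 66.6 and 64.5 untreated. Passage 8 gave the highest AsPC-1 value in both conditions, opposite to its low TNFRSF10A. The differences were -0.82 ± 0.64 in BxPC-3 (limma, adjusted p = 0.519) and -0.87 ± 0.64 in AsPC-1 (adjusted p = 0.546), and neither passed. In a fit to the BxPC-3 arrays alone the BxPC-3 difference passed (adjusted p = 0.0274). The AsPC-1 difference moved with the passage 8 arrays: it was -1.47 without PMA replicate 1 and -0.01 without untreated replicate 1, and passed in neither case. Each of these fits kept only 1 array of the passage 8 pair. Within passages the differences were -1.40, -1.01 and -0.20 in AsPC-1, all lower with PMA, and 0.04, -1.21 and -1.29 in BxPC-3.

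**Figure D1:**
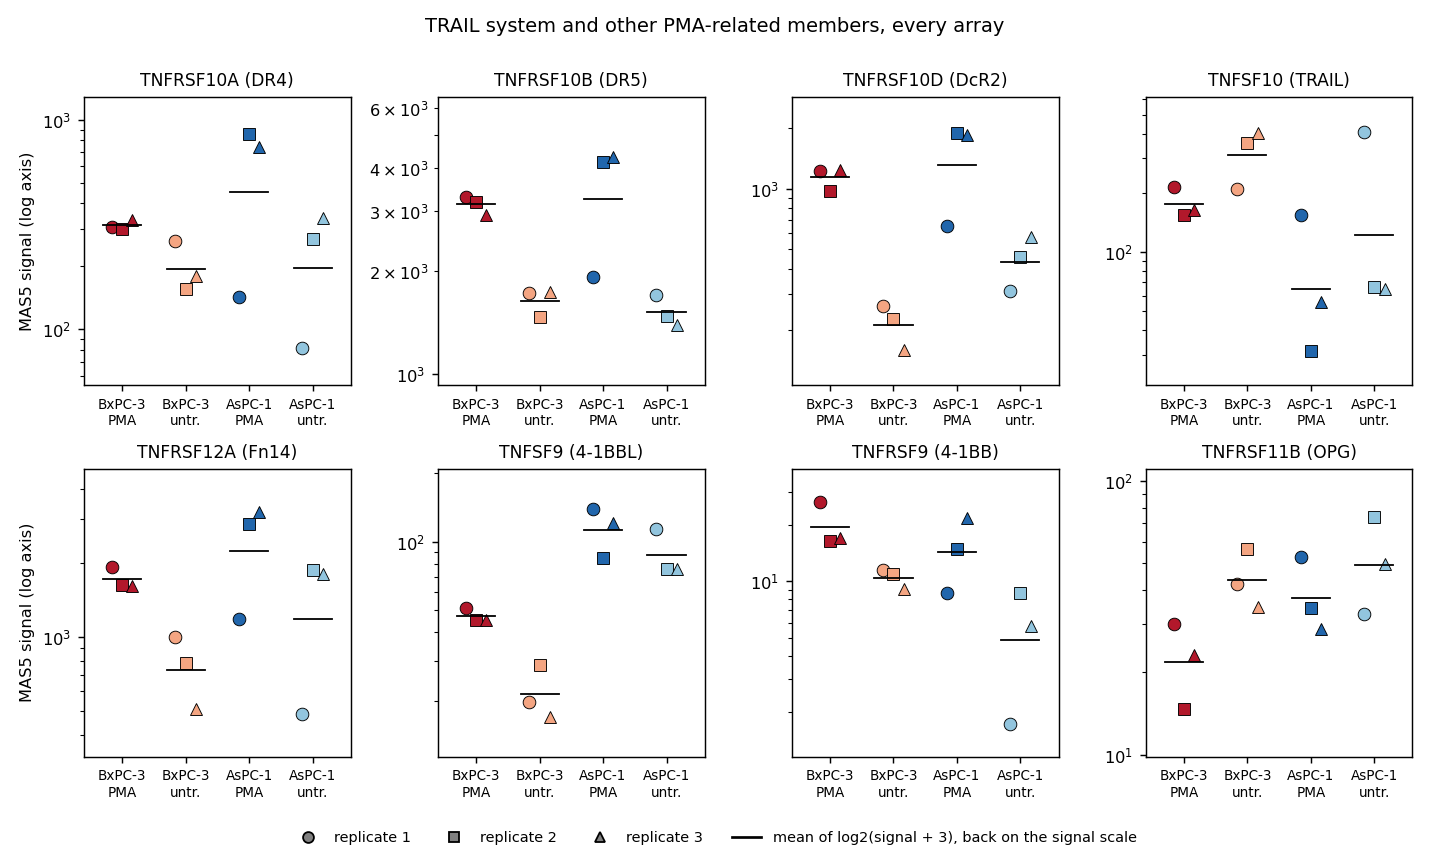
MAS5 signal (log axis) of 8 superfamily members on each array, with marker shapes for replicate numbers and a line at the mean of log2(signal + 3). For TNFRSF10D and TNFRSF10B all PMA arrays of a line lie above its untreated arrays, while in AsPC-1 replicate 1 lies low for TNFRSF10A and TNFRSF12A and high for TNFSF10.

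The other probe sets of these genes gave a second reading of the same RNA. All 4 probe sets of TNFRSF10B, both of TNFRSF10D and all 3 of TNFRSF10A had higher means with PMA in both lines, and in BxPC-3 no groups overlapped. For TNFRSF10B the differences ran from 0.92 to 1.57 in BxPC-3 and from 1.10 to 1.59 in AsPC-1, and for TNFRSF10A from 0.68 to 1.54 in BxPC-3 and from 0.72 to 1.19 in AsPC-1. The second TNFRSF10D probe set gave 2.07 in BxPC-3 and 1.48 in AsPC-1, with no overlap in either line. The 3 probe sets of TNFSF10 all had lower means with PMA, from -1.30 to -0.65 in BxPC-3 and from -1.31 to -0.87 in AsPC-1, and in BxPC-3 the 2 that were not kept did not overlap. Probe sets of a gene share the arrays and are not replicates.

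**Figure D2:**
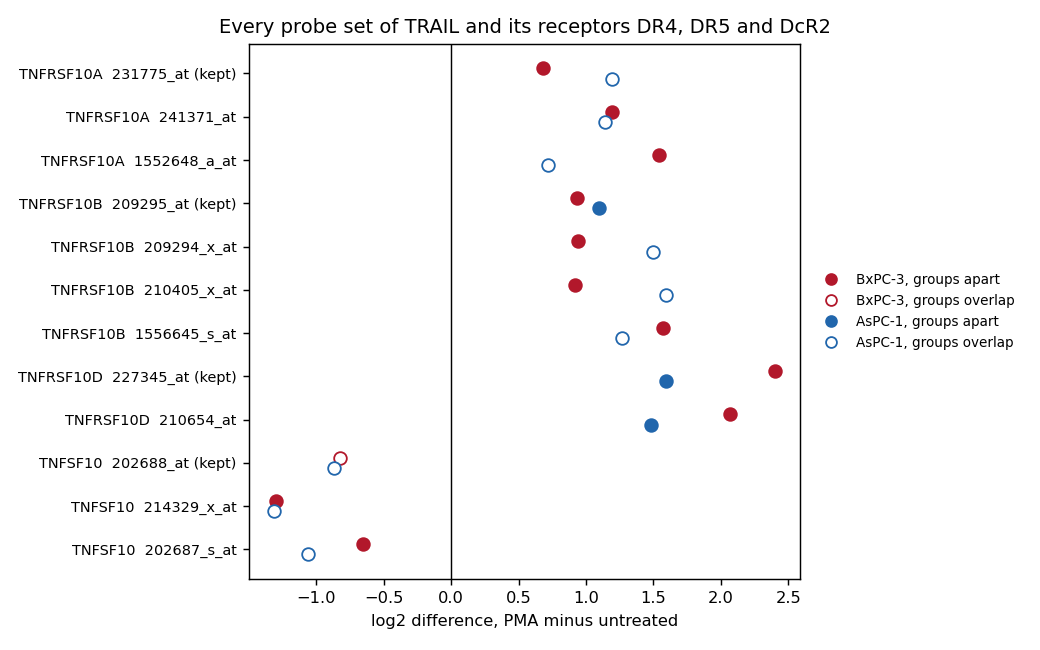
log2 difference, PMA minus untreated, of every single-symbol probe set of TNFSF10 and its receptor genes TNFRSF10A, TNFRSF10B and TNFRSF10D in both lines (filled points: groups do not overlap). The receptor probe sets lie right of 0 and the 3 of TNFSF10 left of it in both lines.

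Across the superfamily, 3 of 31 tested members rose and 0 fell after PMA in BxPC-3, where 5.82% of all genes tested passed (2.52% higher and 3.3% lower). In AsPC-1, 2 of 31 rose and 0 fell, where 1.96% of all genes passed (1.24% higher and 0.721% lower). At an unadjusted p under 0.05, limma gave 6 members in BxPC-3 and 3 in AsPC-1. For unadjusted counts, here and below, the share over all genes is not given, so they are not read as a result. With passage as a replicate block 5 were higher in BxPC-3, beside 10.2% of all genes (4.16% higher and 6.06% lower). In AsPC-1, 4 were higher, beside 5.62% (2.79% higher and 2.83% lower), with 0 members lower in either line. Without AsPC-1 PMA replicate 1 there were 4 higher in BxPC-3, beside 14.9% of all genes (5.7% higher and 9.17% lower). There were 5 higher and 1 lower in AsPC-1, beside 19.5% (6.09% higher and 13.5% lower). The median difference over the 31 members was 0.36 in BxPC-3, against 0.00 over all genes, with 24 members above 0. In AsPC-1 it was -0.06 over the members, against -0.10 over all genes, with 14 members above 0. PMA and untreated arrays did not overlap for 10 of the 31 members in BxPC-3, beside 38.9% of all genes, and for 4 in AsPC-1, beside 14.4%.

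**Figure D3:**
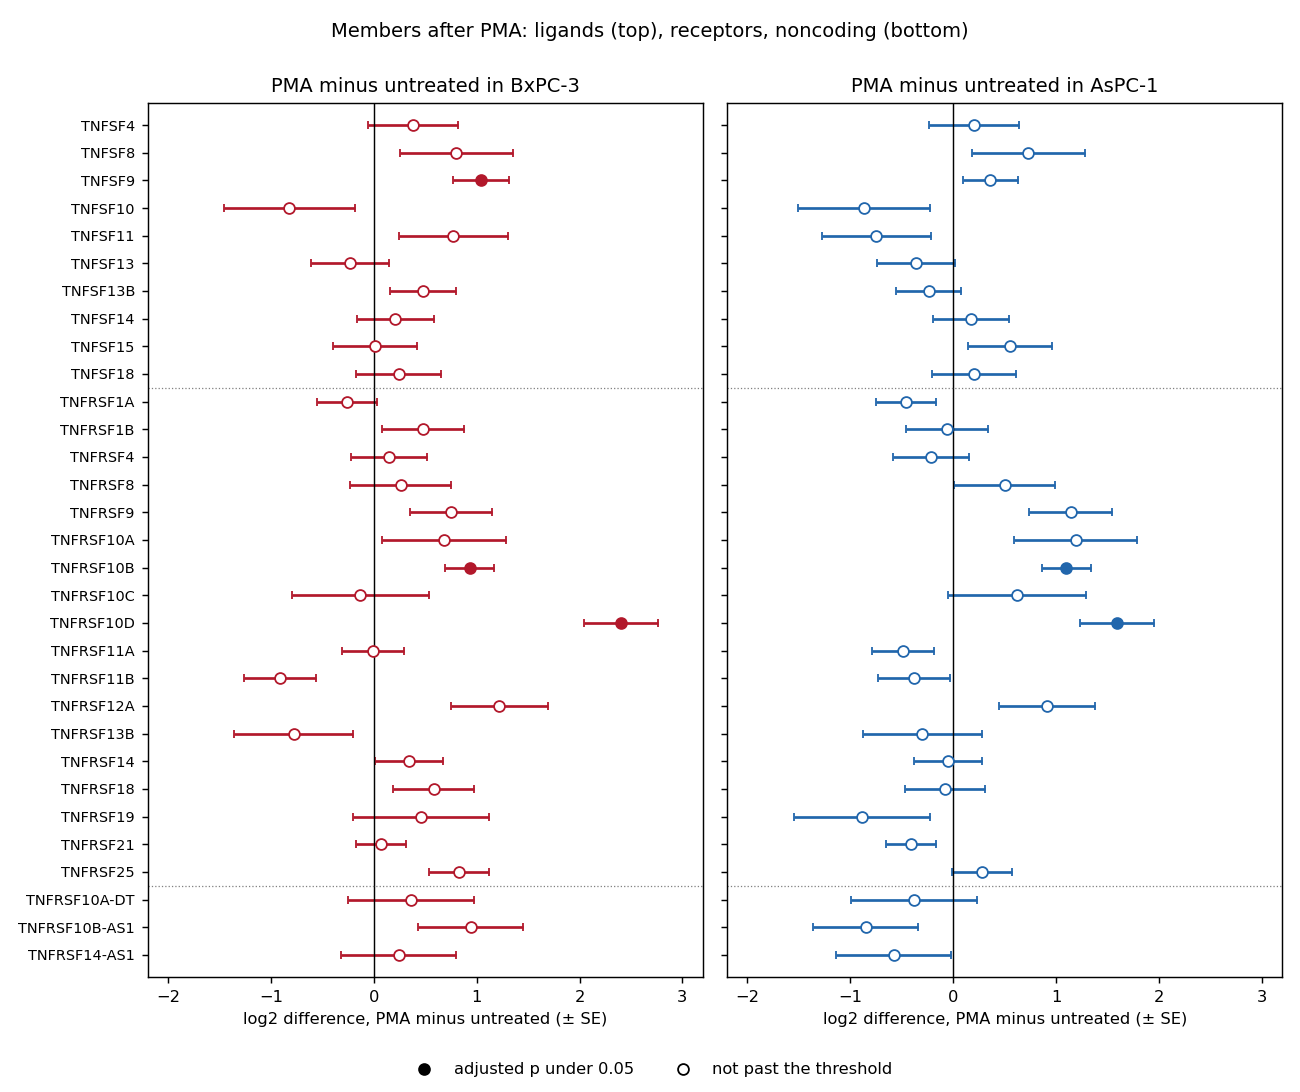
log2 difference, PMA minus untreated (± SE, n = 3 arrays each), of the 31 tested members in each line, ligands on top, then receptors and noncoding genes (filled: adjusted p under 0.05). TNFSF9, TNFRSF10B and TNFRSF10D pass in BxPC-3, and the last 2 of these in AsPC-1.

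TNFSF9 was the single ligand gene to pass after PMA. It encodes 4-1BBL, a costimulatory ligand for T cells. Its signals were 51.4, 45.1 and 45.4 in BxPC-3 cells with PMA, against 19.9, 28.8 and 17.1 in untreated BxPC-3 cells, with no overlap. It rose by 1.04 ± 0.27 (limma, adjusted p = 0.0396). The call was lost without any 1 of the BxPC-3 arrays except untreated replicate 2, and without untreated AsPC-1 replicate 2 or 3 (0.90 to 1.23, adjusted p up to 0.171). In AsPC-1, signals of 139, 84.7 and 121 with PMA overlapped 113, 75.7 and 76.1 untreated (0.36 ± 0.27, adjusted p = 0.553).

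The gene of its receptor 4-1BB, TNFRSF9, was dim. It had signals of 26.6, 16.4 and 17.0 in BxPC-3 with PMA, against 11.5, 10.9 and 9.07 untreated. In AsPC-1 it had 8.70, 14.8 and 21.7 with PMA and 1.73, 8.67 and 5.77 untreated. The groups did not overlap in either line, but the differences of 0.75 ± 0.40 (limma, adjusted p = 0.324) and 1.14 ± 0.40 (adjusted p = 0.173) did not pass. The AsPC-1 difference was 1.42 and passed when PMA replicate 1 was left out (adjusted p = 0.0345). Its 2 other probe sets were dimmer still, with overlapping groups and differences from -0.33 to 0.38.

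TNFRSF12A encodes Fn14, the receptor for TWEAK, which signals through TRAF proteins. It had signals of 1924, 1628 and 1605 in BxPC-3 cells with PMA and 995, 784 and 510 in untreated BxPC-3 cells. In AsPC-1 the signals were 1185, 2888 and 3222 with PMA and 487, 1872 and 1801 untreated. The signal was higher with PMA in 3 of 3 passages of each line, and both AsPC-1 arrays of passage 8 were low. The differences of 1.22 ± 0.47 in BxPC-3 (limma, adjusted p = 0.152) and 0.91 ± 0.47 in AsPC-1 (adjusted p = 0.359) did not pass the unpaired test. With passage as a replicate block TNFRSF12A passed in both lines (adjusted p = 0.00218 in BxPC-3 and 0.0137 in AsPC-1), and so it did in a fit to the BxPC-3 arrays alone (adjusted p = 0.0018). It also passed without AsPC-1 PMA replicate 1 in AsPC-1 (1.37, adjusted p = 0.045), and in BxPC-3 without untreated AsPC-1 replicate 1 (adjusted p = 0.0443). In AsPC-1 that same omission gave 0.28, which did not pass.

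TNFRSF25 encodes the death domain receptor DR3. In BxPC-3 its signals were 87.2, 96.4 and 94.4 with PMA and 44.2, 58.8 and 50.4 untreated, with no overlap. The difference of 0.83 ± 0.29 (limma, adjusted p = 0.117) passed only with passage as a replicate block (adjusted p = 0.0463), with quantile normalization (0.93, adjusted p = 0.0481), in a fit to the BxPC-3 arrays alone (adjusted p = 0.00643) and without AsPC-1 PMA replicate 1 (adjusted p = 0.0421). In AsPC-1 it had 57.6, 40.4 and 28.7 with PMA, overlapping 48.6, 26.5 and 27.7 untreated (0.28 ± 0.29, adjusted p = 0.695). The other probe sets of TNFRSF25 disagreed in AsPC-1, with 0.32, 1.27, 1.33 and -2.04, all with overlap. In BxPC-3 the same probe sets gave 0.73, 0.71 and 1.05, without overlap, and 0.32, with overlap.

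TNFRSF1A encodes TNFR1, the death domain receptor for TNF. Its signals were 289, 286 and 273 in BxPC-3 cells with PMA and 402, 328 and 296 in untreated BxPC-3 cells. In AsPC-1 they were 324, 134 and 132 with PMA and 249, 267 and 227 untreated, so the PMA array of passage 8 lay above all untreated arrays and the other 2 below. The differences were -0.26 ± 0.29 (limma, adjusted p = 0.671) and -0.46 ± 0.29 (adjusted p = 0.464). TNFRSF1A fell by 0.88 in AsPC-1 when that array was left out (adjusted p = 0.00163). TNFRSF11B, which encodes the secreted decoy osteoprotegerin, had 30.1, 14.7 and 23.1 in BxPC-3 cells with PMA and 42.0, 56.5 and 34.5 in untreated ones. These groups did not overlap, but the difference of -0.91 ± 0.35 did not pass (limma, adjusted p = 0.156).

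The line comparisons gave larger differences, and the untreated and PMA arrays used in them are those of the PMA comparisons above. Between untreated cells, 7 of 31 members were lower and 0 higher in BxPC-3 than in AsPC-1, where 32.4% of all genes passed (16.8% higher and 15.6% lower). With PMA, 5 were higher and 6 lower in BxPC-3, where 33.5% of all genes passed (18.3% higher and 15.2% lower). The median over the members was -0.21 with PMA, against 0.03 over all genes, and -0.33 untreated, against -0.08. The 2 lines differ in donor, tumour site and culture history, which cannot be told apart here. Without AsPC-1 PMA replicate 1 the counts were 2 higher and 7 lower untreated, and 7 higher and 9 lower with PMA, beside 40.6% of all genes in each. The added calls were TNFRSF1A (0.45 untreated, 1.07 with PMA), TNFSF11 (1.38 untreated), TNFSF10 (1.99 with PMA), TNFRSF10A (-1.34 with PMA), TNFRSF10B (-0.43 with PMA) and TNFRSF10D (-0.72 with PMA). Leaving out untreated AsPC-1 replicate 1 added TNFSF10 (2.20 untreated, 1.39 with PMA), TNFRSF12A (-1.32 untreated) and TNFRSF25 (0.84 untreated).

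The largest line difference among the members was in TNFSF15, which encodes TL1A, the ligand of DR3. With PMA its signals were 5.14, 21.4 and 22.7 in BxPC-3 and 2051, 3062 and 2886 in AsPC-1. Untreated, they were 23.3, 12.4 and 9.40 in BxPC-3 and 1268, 2258 and 2007 in AsPC-1. TNFSF15 was thus close to the dim end of the arrays in BxPC-3 and bright in AsPC-1 in both conditions. The differences, BxPC-3 minus AsPC-1, were -7.26 ± 0.41 with PMA (limma, adjusted p = 2.05e-08) and -6.71 ± 0.41 untreated (adjusted p = 3.96e-08). A second probe set gave -4.21 with PMA and -4.17 untreated, also without overlap. PMA left TNFSF15 with differences of 0.01 ± 0.41 in BxPC-3 and 0.55 ± 0.41 in AsPC-1, neither past the threshold.

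**Figure D4:**
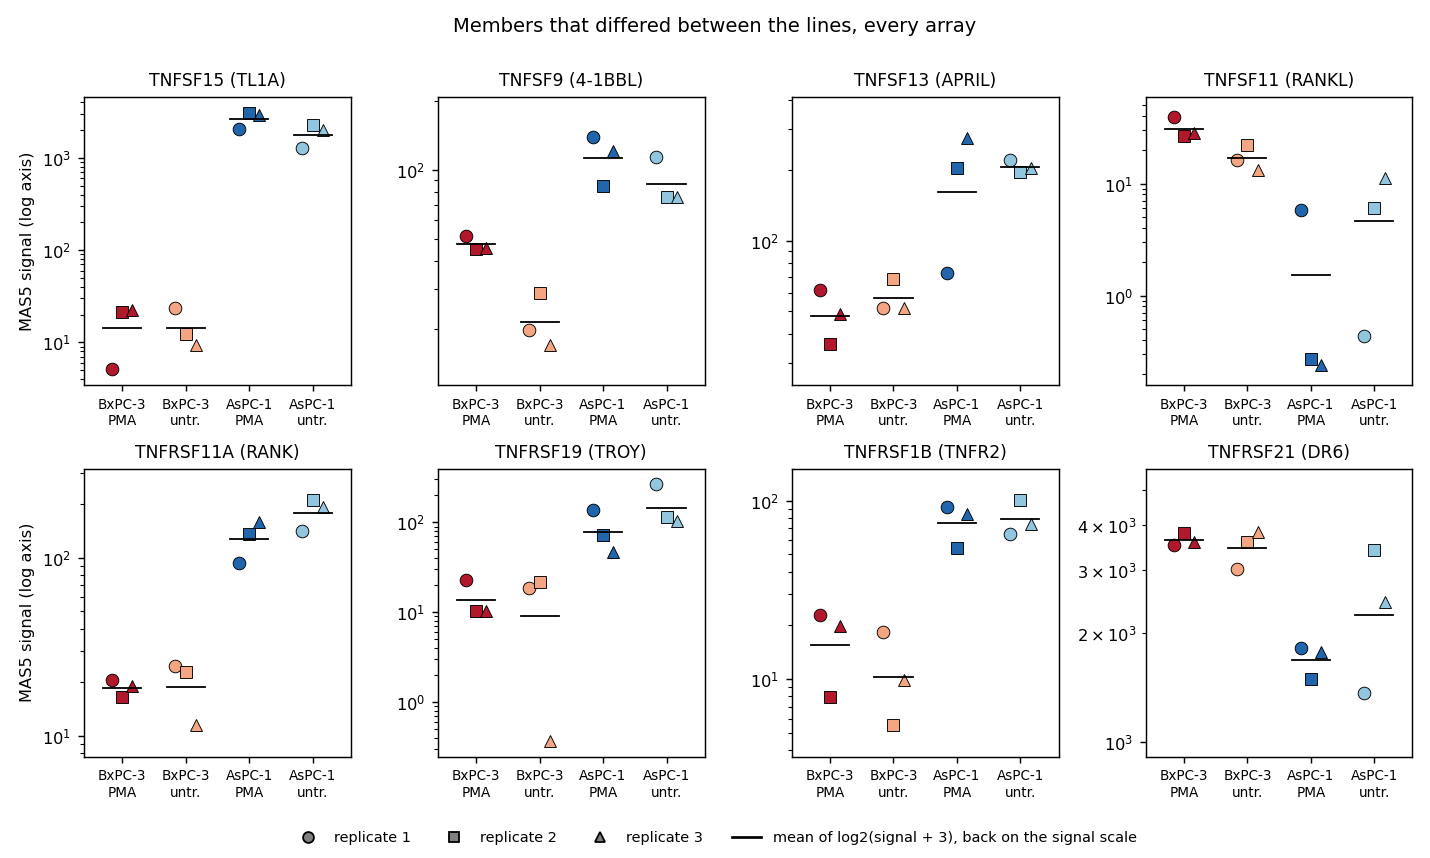
MAS5 signal (log axis) of 8 members that passed the test between the lines, on each array, with a line at the mean of log2(signal + 3). BxPC-3 arrays lie below AsPC-1 arrays for TNFSF15, TNFSF9, TNFRSF11A, TNFRSF19, TNFRSF1B and TNFSF13, and above them for TNFSF11.

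Of the other ligand genes, TNFSF9 was lower in BxPC-3 by 1.20 ± 0.27 with PMA (limma, adjusted p = 0.00345) and by 1.88 ± 0.27 untreated (adjusted p = 0.000112), from the signals given above. TNFSF13 encodes APRIL, a B cell survival factor. With PMA it had 61.4, 36.2 and 48.8 in BxPC-3 against 73.0, 205 and 275 in AsPC-1. Untreated it had 51.5, 68.4 and 51.8 in BxPC-3 against 222, 196 and 205 in AsPC-1. The groups did not overlap, and with PMA the AsPC-1 array of passage 8 stood nearest to BxPC-3. The differences were -1.69 ± 0.38 with PMA (limma, adjusted p = 0.00354) and -1.82 ± 0.38 untreated (adjusted p = 0.00226).

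TNFSF11 and TNFSF13B were higher in BxPC-3 than in AsPC-1 with PMA. TNFSF11 encodes RANKL, the ligand that drives osteoclast formation. It had 39.5, 26.7 and 28.0 in BxPC-3 cells with PMA against 5.75, 0.273 and 0.238 in AsPC-1 cells with PMA, a difference of 2.91 ± 0.53 (limma, adjusted p = 0.00074). All 3 AsPC-1 PMA signals lay under the 40th percentile of their arrays, so the size of this difference has no firm value. It was 1.39 with a pseudocount of 16 and still passed. The second probe set of TNFSF11, with a mean signal of 4.42, gave 0.44 with overlapping groups. Untreated, the kept probe set had 16.3, 22.2 and 13.2 in BxPC-3 and 0.440, 6.05 and 11.2 in AsPC-1 (1.38 ± 0.53, adjusted p = 0.0609). TNFSF13B, which encodes the B cell factor BAFF, had 59.0, 42.5 and 36.9 in BxPC-3 with PMA against 26.1, 14.7 and 15.2 in AsPC-1 with PMA. It was higher by 1.20 ± 0.32 (limma, adjusted p = 0.0105), a call lost without BxPC-3 PMA replicate 1 (adjusted p = 0.0535).

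Among the receptors, TNFRSF11A encodes RANK, the receptor of RANKL. With PMA it had 20.5, 16.6 and 19.0 in BxPC-3 against 93.8, 137 and 159 in AsPC-1. Untreated it had 24.6, 22.9 and 11.5 in BxPC-3 against 142, 211 and 192 in AsPC-1. Its differences were -2.58 ± 0.30 with PMA (limma, adjusted p = 1.58e-05) and -3.06 ± 0.30 untreated (adjusted p = 3.19e-06).

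TNFRSF19 encodes TROY, an orphan receptor. With PMA it had 22.9, 10.4 and 10.4 in BxPC-3 against 136, 72.9 and 46.7 in AsPC-1. Untreated it had 18.5, 21.7 and 0.371 in BxPC-3 against 265, 114 and 103 in AsPC-1. The differences were -2.27 ± 0.66 with PMA (limma, adjusted p = 0.017, and up to 0.0619 without BxPC-3 PMA replicate 2 or 3) and -3.62 ± 0.66 untreated (adjusted p = 0.000814). The untreated BxPC-3 signal of 0.371 lay under the 40th percentile of its array, so the size of the untreated difference has no firm value. The other probe sets of TNFRSF19 gave -1.92 and -1.66 untreated, without overlap. With PMA they gave -1.46, without overlap, and -0.78, with overlap. TNFRSF1B encodes TNFR2, a TNF receptor without a death domain. With PMA its signals were 22.8, 7.95 and 19.8 in BxPC-3 against 92.2, 54.1 and 84.4 in AsPC-1. Untreated they were 18.4, 5.51 and 9.94 in BxPC-3 against 64.9, 101 and 74.0 in AsPC-1. TNFRSF1B was lower in BxPC-3 by 2.07 ± 0.40 with PMA (limma, adjusted p = 0.0012) and by 2.62 ± 0.40 untreated (adjusted p = 0.00019), with no overlap.

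TNFRSF21, which encodes the death domain receptor DR6, had 3521, 3798 and 3575 in BxPC-3 with PMA against 1825, 1499 and 1770 in AsPC-1 with PMA (1.10 ± 0.24, limma, adjusted p = 0.00298). Untreated, 3007, 3587 and 3810 in BxPC-3 overlapped 1365, 3401 and 2447 in AsPC-1 (0.62 ± 0.24, adjusted p = 0.0674), a difference that passed with quantile normalization (0.71, adjusted p = 0.0285) and without untreated AsPC-1 replicate 2 (0.92, adjusted p = 0.00578). After PMA, TNFRSF21 differed from untreated cells by 0.07 in BxPC-3 and -0.41 in AsPC-1, past the threshold only in AsPC-1 and only without untreated replicate 1 (-0.77, adjusted p = 0.0304). Its second probe set gave 0.56 in BxPC-3, with no overlap, and -0.53 in AsPC-1, with overlap. TNFRSF25 was higher in BxPC-3 with PMA by 1.13 ± 0.29 (limma, adjusted p = 0.00847). Untreated its difference was 0.58 on the kept probe set, with overlap, and it passed with the mean of its probe sets (0.94, adjusted p = 0.0277). TNFRSF10D was lower in untreated BxPC-3 than in untreated AsPC-1 by 1.03 ± 0.36 (limma, adjusted p = 0.0417), but not after PMA, where the difference was -0.21 ± 0.36 (adjusted p = 0.707). The untreated call was lost without any 1 of the 6 BxPC-3 arrays or without untreated AsPC-1 replicate 2 or 3 (adjusted p up to 0.157). Without AsPC-1 PMA replicate 1 it held (adjusted p = 0.00169), and the PMA difference was -0.72 and passed too (adjusted p = 0.0302).

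No member's response to PMA differed between the lines past the threshold (limma, 0 of 31, 1 at an unadjusted p under 0.05; 0.491% of all genes passed). The fitted differences of the responses, BxPC-3 minus AsPC-1, ran from -0.75 to 1.79. For TNFRSF10D it was 0.82 ± 0.51 (limma, adjusted p = 0.701), and 0.31 without AsPC-1 PMA replicate 1. For TNFSF9 it was 0.68 ± 0.38 (adjusted p = 0.667). The highest was in the noncoding TNFRSF10B-AS1 (1.79 ± 0.72, limma, unadjusted p = 0.0265, adjusted p = 0.484). Its signals were 12.2, 2.27 and 14.5 in BxPC-3 with PMA and 1.38, 4.34 and 3.23 in untreated BxPC-3. In AsPC-1 they were 7.39, 4.54 and 1.92 with PMA and 12.9, 6.33 and 12.2 untreated. It lay above the 40th percentile on 4 arrays, all from BxPC-3 with PMA or untreated AsPC-1. Those groups raise this difference, and they alone carried the gene through the filter, so the value is not read as a response. Its second probe set gave 0.26 in BxPC-3 and -0.66 in AsPC-1, both with overlap.

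The other noncoding members were dim as well. TNFRSF10A-DT, a divergent transcript named for TNFRSF10A, had 37.0, 60.0 and 47.9 in BxPC-3 with PMA against 18.5, 3.26 and 26.9 in AsPC-1 with PMA. It was higher in BxPC-3 by 1.66 ± 0.61 (limma, adjusted p = 0.0495), a call lost without any 1 of the 6 BxPC-3 arrays, without AsPC-1 PMA replicate 2 or without untreated AsPC-1 replicate 1 (adjusted p up to 0.216). TNFRSF14-AS1 lay between 2.60 and 36.3 on the 12 arrays and passed no test. The strand of the array probes was not checked, so TNFRSF10B-AS1 and TNFRSF14-AS1 are uncertain where they overlap their partner genes.

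The remaining members passed no comparison. Of the ligand genes, TNFSF14 (LIGHT) stayed between 3.78 and 11.3, TNFSF18 (GITRL) between 7.05 and 22.9, TNFSF4 (OX40L) between 3.94 and 20.2 and TNFSF8 (CD30L) between 1.10 and 17.5. Of the receptor genes, TNFRSF4 (OX40) stayed between 5.48 and 17.9, TNFRSF8 (CD30) between 1.57 and 19.2, TNFRSF18 (GITR) between 9.02 and 45.1 and TNFRSF13B (TACI) between 2.63 and 42.3. These are mostly genes of immune cells, and many of their signals lay around or under the 40th percentile of the arrays. TNFRSF14, which encodes HVEM, was brighter, between 27.6 and 91.4.

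Sequences of the region around the transcription start were at hand for 21 of the 33 members, from RefSeq on GRCh38.p14, each covering 250 bases before to 50 after the start. TNFRSF10A, TNFRSF10B, TNFRSF10D and TNFRSF12A were not among the 21, so the motif counts below do not cover them. Sequences are shown for the 4-1BBL and 4-1BB genes and for TNFSF15, the member that differed most between the lines. The signals of 4-1BBL and its receptor were both higher with PMA in 3 of 3 passages of each line. Of these 2, TNFSF9 passed the test in BxPC-3 alone and TNFRSF9 in neither line. Each sequence is written along the gene's strand. Capitals mark matches to the AP-1 motif TGANTCA, the element bound by factors downstream of protein kinase C, or to the NF-kB consensus, both searched on both strands.
TNFSF9 (chr19:6530776-6531075, plus strand): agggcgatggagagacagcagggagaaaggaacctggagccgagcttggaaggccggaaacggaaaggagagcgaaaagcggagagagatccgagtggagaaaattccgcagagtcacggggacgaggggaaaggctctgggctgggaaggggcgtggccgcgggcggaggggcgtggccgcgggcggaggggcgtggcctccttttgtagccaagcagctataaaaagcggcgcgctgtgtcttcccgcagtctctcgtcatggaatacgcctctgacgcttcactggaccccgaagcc
TNFRSF9 (chr1:7940790-7941089, minus strand): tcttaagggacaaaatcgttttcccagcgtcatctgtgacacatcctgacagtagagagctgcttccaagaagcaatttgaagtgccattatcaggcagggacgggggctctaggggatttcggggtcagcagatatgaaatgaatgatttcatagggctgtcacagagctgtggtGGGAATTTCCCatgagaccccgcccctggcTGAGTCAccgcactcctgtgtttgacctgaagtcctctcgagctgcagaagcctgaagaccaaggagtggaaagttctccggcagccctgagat
TNFSF15 (chr9:114792481-114792780, minus strand): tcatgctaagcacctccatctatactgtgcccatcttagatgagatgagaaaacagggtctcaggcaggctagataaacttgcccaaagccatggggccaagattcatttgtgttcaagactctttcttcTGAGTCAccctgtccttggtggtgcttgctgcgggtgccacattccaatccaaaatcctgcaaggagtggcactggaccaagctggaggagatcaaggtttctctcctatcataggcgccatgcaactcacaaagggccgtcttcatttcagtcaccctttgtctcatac
The TNFSF9 window held neither motif. The TNFRSF9 window held overlapping NF-kB matches that begin 74 and 73 bases before the start and an AP-1 match 44 bases before it. The TNFSF15 window held an AP-1 match 120 bases before the start. The AP-1 motif was in 4 of the 21 member windows (TNFRSF8, TNFRSF9, TNFSF14 and TNFSF15) and in 7.71% of 35116 promoter windows. The NF-kB consensus was in 7 of 21 and in 11.3%. A match describes these letters and says nothing on binding.

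The signalling genes around the receptors are described from lists of known pathway members. Among superfamily members with other symbols, RELT, an orphan receptor, rose in both lines. It had 134, 160 and 151 in BxPC-3 with PMA against 61.1, 52.7 and 70.7 untreated (1.24 ± 0.32, limma, adjusted p = 0.0408), and 72.1, 204 and 192 in AsPC-1 with PMA against 48.5, 45.3 and 45.2 untreated (1.55 ± 0.32, adjusted p = 0.0315). EDAR, the ectodysplasin receptor, fell in both. It had 37.5, 61.0 and 35.8 in BxPC-3 with PMA against 88.9, 108 and 178 untreated (-1.40 ± 0.32, limma, adjusted p = 0.0201), and 130, 70.6 and 71.5 in AsPC-1 with PMA against 303, 250 and 225 untreated (-1.53 ± 0.32, adjusted p = 0.0289). PMA and untreated arrays overlapped for neither gene. So 1 of 7 tested receptors rose and 1 fell in each line, where 5.82% of all genes passed in BxPC-3 and 1.96% in AsPC-1. The median over the 7 was -0.18 in BxPC-3, against 0.00 over all genes, and -0.10 in AsPC-1, against -0.10. FAS (-0.18 in BxPC-3, -0.67 in AsPC-1) and CD40 (0.45 in BxPC-3, -0.10 in AsPC-1) did not pass. FAS fell by 1.07 in AsPC-1 without PMA replicate 1 (adjusted p = 0.0012).

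None of the 5 tested ligands with other symbols passed in either line with limma (1 in BxPC-3 and 2 in AsPC-1 at an unadjusted p under 0.05). TNF itself had 18.0, 27.1 and 9.67 in BxPC-3 with PMA against 5.87, 1.39 and 1.79 untreated, and 10.3, 49.6 and 45.3 in AsPC-1 with PMA against 7.03, 15.0 and 3.74 untreated. The differences were 1.81 ± 0.57 in BxPC-3 (limma, adjusted p = 0.0807) and 1.60 ± 0.57 in AsPC-1 (adjusted p = 0.172). TNF passed in BxPC-3 with passage as a replicate block (adjusted p = 0.045), and in both lines without AsPC-1 PMA replicate 1 (adjusted p = 0.0168 in BxPC-3 and 0.00679 in AsPC-1, where the difference was 2.24).

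Of 11 tested adaptors and ubiquitin enzymes, 3 rose and 1 fell in BxPC-3, where 5.82% of all genes passed in either direction. The signalling adaptor TRAF1 rose by 1.79 ± 0.42 (limma, adjusted p = 0.0249), TRAF4 by 1.31 ± 0.20 (adjusted p = 0.00245) and the TRAF binding protein TANK by 0.72 ± 0.19 (adjusted p = 0.0422). FADD, the adaptor that links death receptors to caspases, fell by 1.58 ± 0.37 (adjusted p = 0.0247), with 167, 117 and 173 on PMA arrays against 479, 481 and 408 on untreated ones. In AsPC-1, where 1.96% of all genes passed, 0 of the 11 did (4 at an unadjusted p under 0.05), and FADD signals were 587, 181 and 165 with PMA against 426, 466 and 563 untreated. The PMA array of passage 8 lay above all untreated ones there and the other 2 below. Without it FADD fell by 1.47 (adjusted p = 0.00013), and 3 of the list rose and 2 fell in AsPC-1, beside 19.5% of all genes passing. With the replicate block 2 rose in AsPC-1, beside 2.79% of all genes rising, TANK among them (0.63, adjusted p = 0.0249). The median of the list was 0.20 in BxPC-3, against 0.00 over all genes, and 0.21 in AsPC-1, against -0.10. BIRC3 was not analysed here.

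Of 7 tested genes of the caspase arm, 2 rose in BxPC-3: CFLAR, which encodes the caspase-8 inhibitor FLIP, by 0.60 ± 0.16 (limma, adjusted p = 0.0418), and BID, a target of caspase-8, by 0.72 ± 0.17 (adjusted p = 0.0259). In AsPC-1, 0 passed (5 at an unadjusted p under 0.05), with CFLAR at 0.65 ± 0.16 (adjusted p = 0.0582). Over all genes 5.82% passed in BxPC-3 and 1.96% in AsPC-1. The median of the list was 0.04 in BxPC-3, against 0.00 over all genes, and 0.39 in AsPC-1, against -0.10. With the replicate block 1 gene rose in AsPC-1, CFLAR (limma, adjusted p = 0.0436), and 1 fell, CASP6 (adjusted p = 0.0316). Over all genes 2.79% were higher there and 2.83% lower. In BxPC-3 the block gave 2 higher and 1 lower, CASP6 (limma, adjusted p = 0.0483), beside 4.16% of all genes higher and 6.06% lower. Without AsPC-1 PMA replicate 1, 3 rose and 2 fell in each line, beside 14.9% of all genes passing in BxPC-3 and 19.5% in AsPC-1. The 2 that fell were CASP8 and CASP6. CASP8 then had -0.91 in BxPC-3 (limma, adjusted p = 0.000848) and -1.03 in AsPC-1 (adjusted p = 0.000477). In the main fit CASP8 had -0.91 in BxPC-3 (limma, adjusted p = 0.0776) and -0.61 in AsPC-1 (adjusted p = 0.298). CASP6 had -0.63 in BxPC-3 (limma, adjusted p = 0.0774) and -0.79 in AsPC-1 (adjusted p = 0.0575) in the main fit. None of 5 tested shedding genes passed in either line with limma (1 at an unadjusted p under 0.05 in each). ADAM17, which encodes the protease that releases TNF and its receptors, had differences of 0.71 in BxPC-3 and 1.13 in AsPC-1. It passed in AsPC-1 with the replicate block (adjusted p = 0.0491), and in both lines without AsPC-1 PMA replicate 1 (adjusted p = 0.0185 in BxPC-3 and 4.64e-05 in AsPC-1).

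Of 19 tested genes of the NF-kB arm, 3 rose in BxPC-3, where 2.52% of all genes tested rose, and 4 in AsPC-1, where 1.24% did, with 0 falling in either. The median of the list was 0.51 in BxPC-3, against 0.00 over all genes, and 0.88 in AsPC-1, against -0.10. TNFAIP3, which encodes the NF-kB feedback inhibitor A20, had 1603, 1345 and 1786 in BxPC-3 with PMA against 267, 207 and 166 untreated, and rose by 2.89 ± 0.53 (limma, adjusted p = 0.00726). In AsPC-1 it had 439, 2373 and 2669 with PMA against 149, 331 and 319 untreated, and rose by 2.47 ± 0.53 (adjusted p = 0.0342). The inhibitor NFKBIE (1.49) and the subunit RELB (1.34) also rose in BxPC-3, and the A20 partner TNIP1 (1.24) and the TAK1 binding proteins TAB3 (0.88) and TAB2 (0.72) in AsPC-1. With the replicate block 6 rose in BxPC-3, beside 4.16% of all genes, and 7 in AsPC-1, beside 2.79%. Leaving out AsPC-1 PMA replicate 1 gave 9 in BxPC-3, beside 5.70% of all genes, and 14 in AsPC-1, beside 6.09%. The ACTB ratio given above moved with PMA in BxPC-3 beside these lists, and its part was not tested.

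**Figure D5:**
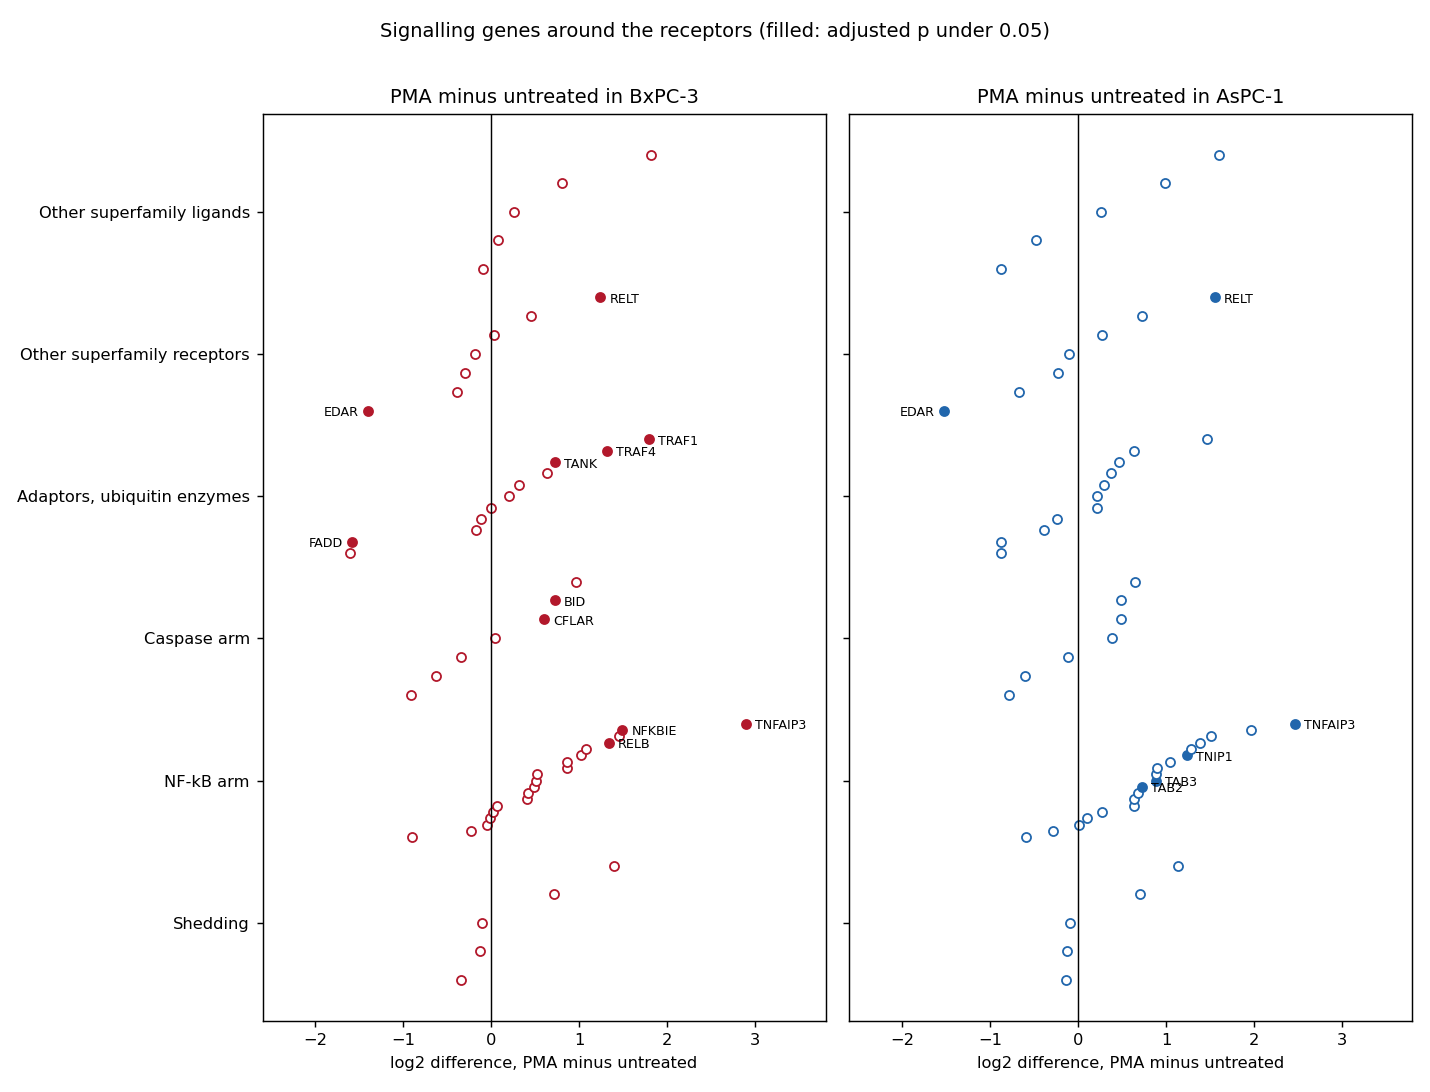
log2 difference, PMA minus untreated, of the genes tested in each list around the receptors, by line (1 point a gene, filled and named: adjusted p under 0.05). RELT and TNFAIP3 lie right of 0 and EDAR left of it in both lines.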

How the data were processed

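Gene expression was measured on 12 Affymetrix arrays, 3 in each of 4 groups. The authors deposited signal intensity on a linear scale for 54675 probe sets, made with MAS5 (version not given) per the submitters' processing notes. Array signal has no read depth, and the number of arrays limits precision. Intensities were turned into log2(signal + 3), with no further scaling. The 62 control probe sets were left out. Of the rest, 41091 had 1 symbol in the platform annotation, 1801 several and 11721 none, and only those with 1 were used. The 33 members had 66 such probe sets, and 8 superfamily probe sets with several symbols were not used.

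A model of 4 group means on 12 arrays was fitted in R 4.3.3 by limma 3.58.1 (lmFit, contrasts.fit, eBayes with trend, 8 residual degrees of freedom, two-sided, Benjamini-Hochberg over 16099 genes, threshold 0.05). The p-values measure the spread between passages, pooled over both lines. With 3 arrays a group, the smallest exact p for a single gene is 0.1. The fit was tested on simulated data. Figures used matplotlib 3.10.9 in Python 3.11.15.

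PMA and untreated arrays of one passage are paired, per the labels. Their deviations from group means correlated at 0.411, 0.206 and 0.157 in AsPC-1 and -0.054, -0.126 and -0.059 in BxPC-3. Between lines the passage was a random block (correlation 0.163).

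Members passing in any comparison are named, with TNFRSF1A, TNFRSF10A, TNFRSF10B, TNFRSF12A and TNFSF10 whatever their result. From each list up to 3 passing members per line are named, with TNF, FAS, CD40, TNFAIP3 and BIRC3. Other genes were named after their values were seen. Members and lists were chosen with earlier results of these data known. Alternatives changed the scaling, pseudocount, filter, probe set summary, variance trend, arrays fitted, replicate block, or left out 1 array.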

Additional observations from a re-analysis of the deposited data

Results flagged for a closer look

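TNFRSF10A-DT, the noncoding gene named for TNFRSF10A, had PMA differences of opposite sign in the 2 lines, 0.36 in BxPC-3 (limma, adjusted p = 0.798) and -0.38 in AsPC-1 (adjusted p = 0.817). It passed in neither, and PMA and untreated groups overlapped in both. Its log2 difference within passages was 0.34, 0.27 and 0.48 in BxPC-3 and -0.48, -0.31 and -0.34 in AsPC-1, so all 3 pairs were higher with PMA in one line and all 3 lower in the other. The difference of the responses was 0.74, and it did not pass the test of the difference (limma, adjusted p = 0.883). Over the alternatives the AsPC-1 value ran from -1.08 to 0.30, so its sign was not stable in fits that do not pair the arrays. With passage as a replicate block it was -0.38 ± 0.27 and did not pass (limma, adjusted p = 0.468).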

How the results depend on the processing

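Of 23 member results past the threshold, 23 kept their call with passage as a replicate block, with a filter at the array median and without AsPC-1 PMA replicate 1. Between 16 and 22 did under each of the other settings, and 0 reversed. Members past the threshold after PMA in BxPC-3 numbered 3, beside 5.82% of all genes, and 5 with the replicate block, beside 10.2%. They numbered 8 in a fit to the arrays of the comparison alone and 1 to 4 when each array was left out in turn. In AsPC-1 they numbered 2, against 4 with the replicate block, 1 with no filter, 0 with the mean of probe sets, 0 with eBayes without trend, 0 with the arrays of the comparison alone (limma, 4, 3 and 3 at an unadjusted p under 0.05) and 0 to 6 when each array was left out (2 to 8 unadjusted). The count of 6 came without AsPC-1 PMA replicate 1, where 19.5% of all genes passed, and its cause was not tested. In AsPC-1, 1.96% of all genes passed in the main fit and 5.62% with the replicate block. Shares of all genes under the other settings are not given here, so these counts are not read as gains or losses of the members. TNFSF9 after PMA in BxPC-3 was also lost with median centring, a pseudocount of 16 and no filter (limma, adjusted p up to 0.0648). TNFRSF10B after PMA was lost in both lines with the mean of probe sets and with eBayes without trend, and TNFRSF10D in untreated BxPC-3 against AsPC-1 with median centring, no filter and eBayes without trend. TNFRSF10A-DT was lost in 7 of the 10 settings that kept every array. Counts between the lines stayed within 1.5 times of 7 untreated and 11 with PMA under each setting run (6 to 10 and 9 to 16 when each array was left out). The 16 came without AsPC-1 PMA replicate 1, where 40.6% of all genes passed, against 33.5% in the main fit. These counts too are not read as gains, losses or stability of the members. The count for the difference of responses stayed 0 in limma, with up to 7 at an unadjusted p under 0.05. Signals under about 10.2, the highest 40th percentile of an array, limit what can be said of the dim members.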
